A study of Mus musculus with 32 samples.

Results

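Untreated mice on a standard chow diet (the C group) were compared 2 weeks after partial hepatectomy (PH) with the liver tissue of C mice removed at the operation. The comparison holds 4 arrays before and 4 arrays after PH, 8 of the 32 liver arrays of the series, and each array was placed in its group by its labels. C mice were male C57Bl/6 mice that were 8 weeks old when the diet began, had eaten chow for 3 weeks at PH and were injected with vehicle (saline) in place of the drug before and after surgery. PH removed 70% of the liver, so the tissue labelled before PH is the excised lobes and the tissue labelled after PH is the regrown remnant. The other groups of the series were fed a methionine and choline deficient (MCD) diet or were given Fc-GLP-1, a long-acting agonist of the receptor for glucagon-like peptide 1, and are used here to ask whether the change in C mice differed from theirs. For the treated groups one label names Fc-GLP-1 and another a drug that also acts on the glucagon receptor, and the name in the study's methods is used. No sham-operated mice are among the 32 arrays, and mice after PH were also 2 weeks older. The labels do not say whether arrays with the same number came from the same mouse, and they were not treated as pairs. The p-values below rest on the spread between samples of a group. This spread was estimated over all 32 arrays in 8 groups, not over the C arrays alone.

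When most of a rodent liver is removed, the remaining hepatocytes leave quiescence, replicate their DNA and divide, and endothelial, stellate and resident macrophage (Kupffer) cells follow. Interleukin 6 and tumour necrosis factor from macrophages prime this process, hepatocyte growth factor and the ligands of the epidermal growth factor receptor drive it, and transforming growth factor β restrains it. Mass is mostly restored within days, after which matrix is remodelled and division declines. The comparison asks what still set the regrown liver apart from the liver that had been excised.

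Values are log2 signals after subtraction of the array's 75th percentile, so that a difference of 1 is a change of 2-fold, and levels of different genes cannot be compared on this scale. Differences between times are log2 fold changes from limma with their standard errors (SE). A gene was called when its limma p-value, adjusted by the Benjamini-Hochberg method over all 21012 genes tested, was under 0.05. The C arrays before PH lay on 1 slide read by 1 scanner, and the C arrays after PH on another slide read by another scanner, so slide, scanner and time cannot be told apart in this comparison. The spike-in control RNAs differed with these slides too. Of 10 spike-in probes 3 had a higher and 7 a lower mean in C mice after PH, and the probe for spike-in E1A_r60_a104 averaged 5.28 (SD 0.80) before PH and -6.41 (SD 0.27) after PH in C mice, and was also low in MCD mice after PH (-6.15, SD 0.62) but not in either treated group after PH (5.2 and 5.33). The 75th percentile of intensity was between 209.4 and 395.2 before and between 471.5 and 778.4 after PH, and 47.2% to 69.2% and 50.2% to 60.6% of probes were well above background. Negative control spots, before background subtraction, had a mean intensity of 64.3 to 73.0 on the C arrays before and 99.9 to 117.4 after PH.

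One array stood apart from its group. The correlation of C after replicate 1 with the other 3 arrays after PH had a median of 0.949, against 0.981 to 0.982 for each of those arrays with its group and 0.968 to 0.971 for the arrays before PH. Counts of called genes and of list members are therefore also given without this array. In whole liver RNA, more cells of a type and more RNA per cell cannot be told apart.

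Regrown livers differed from excised livers in 2942 genes (14% of those tested), with 1282 higher (6.1%) and 1660 lower (7.9%) after PH. Most of the genes tested for mitosis (23 of 28) and for macrophages (22 of 27) rose, and 8 of 28 genes of stellate cells rose while 1 fell. Of 18 core clock genes 7 fell, and of 27 immediate early genes 10 fell and 1 rose. Of the called genes 1062 were at least 2-fold higher and 1058 at least 2-fold lower, and 298 and 249 were at least 4-fold higher and lower. The arrays of both times did not overlap in 1619 genes in the higher direction (7.71%) and 2160 in the lower (10.3%). The split between rises and falls depended on the scaling, with 43.6% of called genes higher here, 64.3% when arrays were centred on their median, 63.6% when they were scaled on the probes well above background on all arrays and 54.8% after normexp background correction with quantile normalization. In the authors' own normalized values 97.7% of called genes were higher, with a median shift of 0.53 over all genes, and 27.8% were higher once those values were centred again on the 75th percentile. With only the 8 arrays of C mice in the fit 1166 genes were called, and without C after replicate 1 there were 1527, of which 1436 were among the 2942 in the same direction. Normexp, which adds an offset of 50 to the intensity, also gave smaller changes: in 58 of the 136 called genes described below the log2 fold change was over 1.5 times smaller. The 9 genes given below as bounds had log2 fold changes of 0.66 to 1.33 and -0.83 to -0.65 with normexp, all smaller than their bounds. A change given below as at least a certain fold is thus a bound on the scale used here only, and does not hold with normexp.

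The largest rise, among called genes whose arrays did not overlap between times, whose direction held with normexp and which were well above background on all 4 arrays after PH, was that of Chil3, a chitinase-like protein secreted by macrophages. Its values were -3.95, -4.94, -4.37 and -4.59 before PH and 4.93, -0.13, -2.60 and -0.53 after PH, with a log2 fold change of 4.88 (SE 0.88, adjusted p = 0.000693). Lcn2, a lipocalin that sequesters bacterial iron carriers and is released by stressed hepatocytes and neutrophils, was 1.58, 2.26, 2.11 and 2.40 before and 9.11, 7.43, 3.20 and 6.05 after PH, with a log2 fold change of 4.36 (SE 0.86, adjusted p = 0.00149). Both genes were highest on C after replicate 1 and lowest after PH on replicate 3, which lay above all 4 arrays before, as the rule for naming them required. The next were Orm3, an orosomucoid of the acute phase (log2 fold change 3.90, adjusted p = 0.00224), F13a1, a subunit of coagulation factor XIII made by macrophages and megakaryocytes (log2 fold change 3.88, adjusted p = 0.00104), S100a8, a calcium-binding protein of neutrophils and monocytes (log2 fold change 3.79, adjusted p = 0.000602), and Timp1, an inhibitor of matrix metalloproteinases (log2 fold change 3.78, adjusted p = 0.00335). Prtn3, a serine protease of neutrophil granules (log2 fold change 3.74, adjusted p = 0.0011), Saa2, a serum amyloid (log2 fold change 3.59, adjusted p = 0.00132), Sirpb1b, a receptor of myeloid cells (log2 fold change 3.54, adjusted p = 0.000376), Prc1, a protein of the central spindle (log2 fold change 3.40, adjusted p = 0.0016), and Sult1e1, the oestrogen sulfotransferase (log2 fold change 3.31, adjusted p = 0.0183), followed. Tafa2, a secreted chemokine-like protein, was well above background on no array before PH and was at least 5.32-fold higher after PH (adjusted p = 0.00241). Sult1e1 rested on C after replicate 1, where it reached 4.18 against -0.95, -2.83 and -3.17 on the other arrays after PH, and its adjusted p without that array was 0.0971. Probes of the Saa, Orm and H2 genes, Chil3, Sirpb1b, Olfr433, Hba-a1 and Serpina4-ps1 may also bind transcripts of close relatives.

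By the same rule the largest fall was that of Rgs16, a brake on G protein signalling in hepatocytes. Rgs16 was 4.83, 6.19, 3.93 and 4.02 before PH and 0.12, -0.16, -0.42 and -1.75 after PH, and fell by 5.30 on the log2 scale (SE 0.53, adjusted p = 1.32e-06). Ppp1r3g, a subunit that directs protein phosphatase 1 to glycogen after a meal, was 1.03, 2.44, 1.65 and 0.98 before and -4.34, -3.27, -1.36 and -1.36 after PH, and fell by 4.11 (SE 0.82, adjusted p = 0.0016). Both genes were separated by more than 2 log2 units between the lowest array before and the highest array after PH. Fgf21, a hepatokine of fasting and protein restriction, was 0.20, -0.12, -0.11 and -0.31 before and -3.80, -3.12, -3.60 and -2.87 after PH, and fell by 3.26 (SE 0.54, adjusted p = 0.000317). Zfp36, which destabilizes cytokine mRNAs, was 0.62, 0.43, 1.11 and 0.26 before and -3.01, -2.14, -3.01 and -2.40 after PH, and fell by 3.25 (SE 0.40, adjusted p = 9.33e-06). The 4 arrays of each time were tight for these genes, with an SD of 0.21 before and 0.43 after PH for Fgf21 and of 0.37 and 0.44 for Zfp36. Serpina4-ps1, a serpin pseudogene, and Pax2, a developmental transcription factor, were also among the largest falls (log2 fold change -3.95, adjusted p = 0.0485 and log2 fold change -3.33, adjusted p = 0.0324), but C after replicate 1 held most of each difference. Serpina4-ps1 was -3.01 on that array against 6.18, 6.24 and 5.15 on the others after PH, Pax2 was -3.63 against 5.01, 4.90 and 3.33, and without that array neither passed (adjusted p = 0.291 and 0.144). The other large falls were of genes little known in liver and of low signal: Tbx22 (log2 fold change -3.99, adjusted p = 0.0065), Mrgprg (log2 fold change -3.20, adjusted p = 0.000483), Fcgbp (log2 fold change -3.17, adjusted p = 0.00283) and Trim42 (log2 fold change -3.09, adjusted p = 0.0011), with Olfr433 at least 6.74-fold lower and Hdgfl1 at least 5.78-fold lower (adjusted p = 9.39e-05 and 0.00594). Tbx22, Mrgprg, Fcgbp and Trim42 were well above background on 4 arrays before PH and on 2, 1, 1 and 1 after PH.

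**Figure D1:**
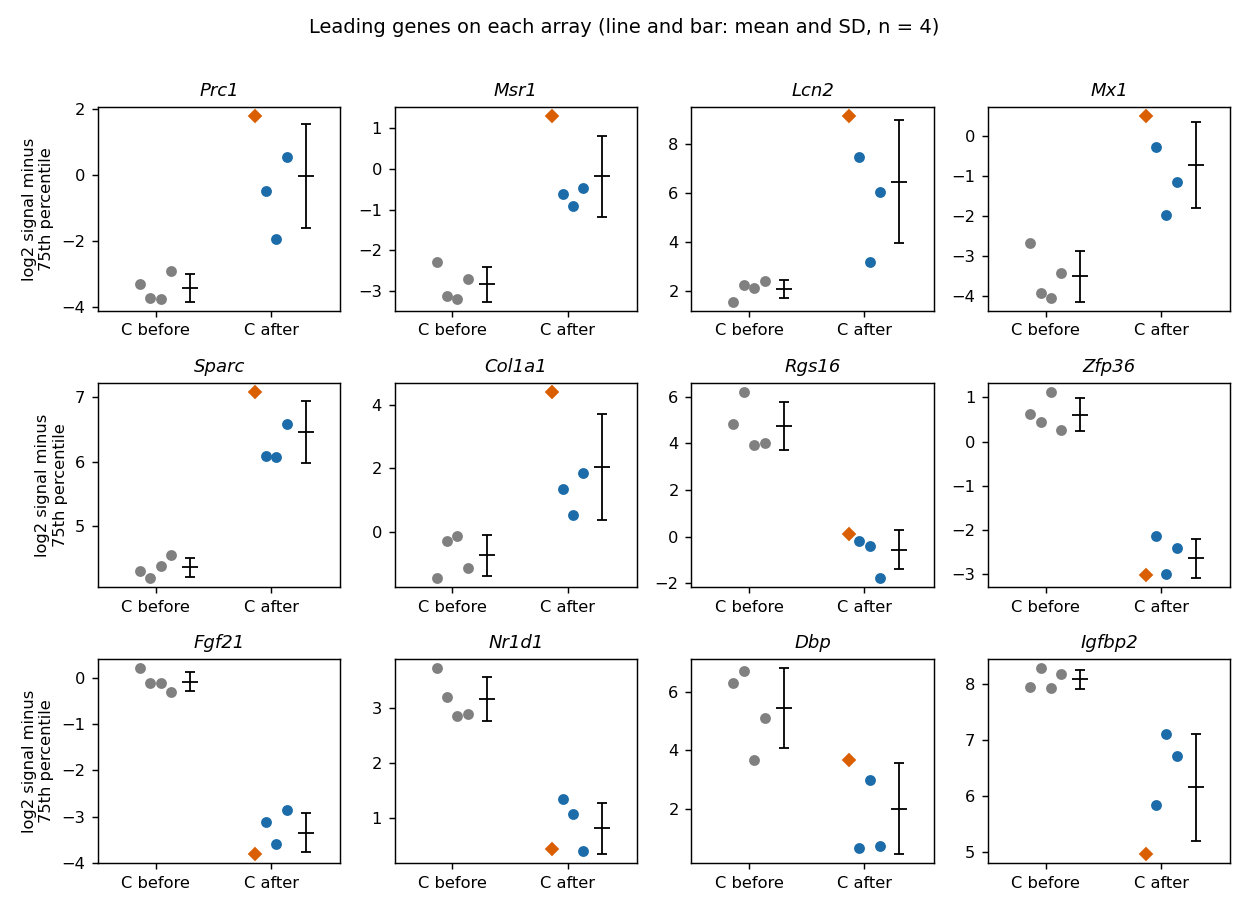
Log2 signal minus the 75th percentile of the array on each of the 4 C arrays before and 4 after PH for 12 genes. Grey circles are arrays before PH, blue circles arrays after PH and orange diamonds C after replicate 1, with the mean and SD beside them; the 4 arrays of Sparc after PH sit between 6.08 and 7.08 and those before between 4.20 and 4.55, whereas both groups of Dbp overlap.

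Most genes of mitosis and cytokinesis rose. Of 28 members tested, 23 rose, against 6.1% of all genes, 0 fell and 27 had a positive change, and the median log2 fold change was 2.13 against -0.08 over all genes tested. The median was 1.31 with normexp and 1.17 with the authors' values centred again, and 2.09 with the 3 members that were below background before PH set at their bounds. Prc1, which bundles the microtubules of the spindle midzone, was -3.28, -3.73, -3.75 and -2.89 before and 1.79, -0.49, -1.93 and 0.56 after PH, with a log2 fold change of 3.40 (SE 0.68, adjusted p = 0.0016). Cenpe, a kinesin that attaches chromosomes to the spindle, was -4.03, -3.69, -3.92 and -3.98 before and 1.19, -1.47, -2.35 and -0.32 after PH, with a log2 fold change of 3.17 (SE 0.65, adjusted p = 0.00198). Racgap1, which positions the cleavage furrow, was -2.76, -2.85, -2.80 and -2.32 before and 1.44, -0.93, -1.73 and -0.15 after PH, with a log2 fold change of 2.34 (SE 0.55, adjusted p = 0.00548). In these 3 genes C after replicate 3 was the lowest array after PH and still lay above every array before. Cdca8, a subunit of the chromosomal passenger complex, rose by 2.10 (SE 0.49, adjusted p = 0.0049). Top2a, the topoisomerase that untangles sister chromatids, and the mitotic kinase Pbk were well above background on no array before and on 3 of 4 arrays after PH, and were at least 6.81-fold and 5.09-fold higher (adjusted p = 0.000123 and 0.00306).

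The size of this rise differed between the regrown livers. The median of the 28 genes, each taken as its difference from the mean before PH, was 3.93, 1.66, 0.74 and 2.41 on replicates 1 to 4 after PH and between -0.18 and 0.22 on the arrays before PH. The median log2 fold change without C after replicate 1 was 1.54 with 27 of 28 genes positive, and 10 genes were called instead of 23. With the authors' values centred again on the 75th percentile, and also with only the C arrays in the fit, 12 were called.

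A smaller part of the DNA replication list rose. Of 29 genes of replication and S phase 8 rose and 0 fell, with a median of 0.67. Mcm6 and Mcm5, subunits of the replicative helicase, rose by 1.72 and 1.59 (SEs 0.40 and 0.43, adjusted p = 0.00474 and 0.0137). Uhrf1, which carries DNA methylation through replication, rose by 2.43 and the licensing factor Cdt1 by 1.03 (adjusted p = 0.0117 and 0.0147). Of these 29 genes 1 was called without C after replicate 1, where the median was 0.44, and without C before replicate 1 there were 4. Among 24 G1 cyclins, CDK inhibitors and p53 targets, 2 rose and 1 fell: Ccnd1, the D-type cyclin of the hepatocyte response to PH, was 1.70, 2.63, 2.89 and 2.24 before and 4.58, 4.06, 2.91 and 3.34 after PH, with a log2 fold change of 1.35 (SE 0.42, adjusted p = 0.0317), and the CDK inhibitor Cdkn2c rose by 1.55 (adjusted p = 0.031). Their adjusted p-values without C after replicate 1 were 0.135 and 0.0816, and 0 of the 24 genes rose without C before replicate 1 or without C before replicate 4. The share of the 24 genes that was called, 12.5%, lay near the 14% of all genes.

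The promoters of the mitotic genes are shown because the members moved together. CCAAT boxes and the cell cycle homology region (CHR) are the known elements of promoters that are active late in the cell cycle. In RefSeq promoters of GRCm38.p6, from 250 bases before to 50 bases after the start of transcription, CCAAT was searched on both strands, and CHR as TTTGAA or TTCGAA on both strands. Promoters were given for 23 of the 28 tested genes, of which 19 (82.6%) held CCAAT and 18 (78.3%) held CHR, against 41.1% and 21.7% of the promoters of 27025 genes. Of the 18 called genes with a promoter 15 held the first and 14 the second. Below are the promoters of Prc1 (chr7:80294201-80294500, plus strand, the first of 2 starts given), Cdca8 (chr4:124936868-124937167, minus strand) and Racgap1 (chr15:99651607-99651906, minus strand), with every match in capitals. In Cdca8 the CHR match overlaps a CCAAT match. A match is a stretch of letters and not a bound site.
Prc1: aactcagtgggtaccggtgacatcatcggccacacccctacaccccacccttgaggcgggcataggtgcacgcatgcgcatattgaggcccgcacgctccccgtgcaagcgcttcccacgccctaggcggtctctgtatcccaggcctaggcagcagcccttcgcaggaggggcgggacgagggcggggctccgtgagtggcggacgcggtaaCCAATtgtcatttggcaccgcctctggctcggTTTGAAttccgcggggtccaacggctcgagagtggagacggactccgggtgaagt
Cdca8: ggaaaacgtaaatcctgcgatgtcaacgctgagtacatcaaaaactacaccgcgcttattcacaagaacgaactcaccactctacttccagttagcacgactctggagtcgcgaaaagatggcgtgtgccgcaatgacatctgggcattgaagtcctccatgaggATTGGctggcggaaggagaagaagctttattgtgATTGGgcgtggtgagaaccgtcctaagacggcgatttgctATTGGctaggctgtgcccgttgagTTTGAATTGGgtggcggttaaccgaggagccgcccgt
Racgap1: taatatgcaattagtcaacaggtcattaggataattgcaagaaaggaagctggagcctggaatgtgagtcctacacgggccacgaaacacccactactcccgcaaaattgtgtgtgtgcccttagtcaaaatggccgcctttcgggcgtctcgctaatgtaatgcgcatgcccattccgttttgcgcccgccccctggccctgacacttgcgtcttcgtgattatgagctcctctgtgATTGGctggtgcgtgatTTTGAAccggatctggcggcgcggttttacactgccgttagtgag

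Among the ligands and receptors of regeneration there was no common direction. Of 33 genes tested 2 rose and 4 fell, and the median was -0.05. At 18.2%, the share called lay near the 14% of all genes. The priming cytokine Il6 was well above background on no array before and on 4 arrays after PH, where its values were -2.59, -3.06, -4.38 and -2.68, and was at least 3.27-fold higher (adjusted p = 0.000752). Tgfb2, which restrains division, rose by 2.05 (adjusted p = 0.0433), and without C after replicate 1 its adjusted p was 0.193. Tgfa, a mitogen for hepatocytes, was -1.18, -1.68, -1.28 and -1.35 before and -2.27, -2.34, -2.21 and -2.45 after PH, and fell by 0.94 (SE 0.20, adjusted p = 0.0028). Erbb3, a neuregulin receptor, fell by 1.51, the receptor Lifr by 1.61 and Hgfac, the protease that activates hepatocyte growth factor, by 1.08 (adjusted p = 0.00264, 0.0191 and 0.026). Tgfa and Erbb3 did not overlap between times, and the latter pair lost the call without C after replicate 1, where 1 gene of the list rose and 3 fell. Without C after replicate 3, in contrast, 5 of the 33 rose, and without C before replicate 1 there were 1 rise and 2 falls.

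Macrophage genes rose almost as a block. Of 27 genes of Kupffer cells and macrophages 22 rose, 0 fell and 27 were positive, with a median log2 fold change of 1.99, or 1.91 after normexp with quantile normalization. Msr1, a scavenger receptor, was -2.28, -3.14, -3.21 and -2.71 before and 1.29, -0.63, -0.92 and -0.47 after PH, with a log2 fold change of 2.65 (SE 0.47, adjusted p = 0.000626). Vsig4, a complement receptor of Kupffer cells, was 1.47, 2.66, 2.21 and 2.37 before and 4.86, 4.70, 3.38 and 3.90 after PH, with a log2 fold change of 2.03 (SE 0.42, adjusted p = 0.00198). Adgre1, an adhesion receptor that marks mouse macrophages, was -2.17, -0.33, 0.61 and 0.04 before and 2.83, 2.09, 0.89 and 1.40 after PH, with a log2 fold change of 2.26 (SE 0.59, adjusted p = 0.0112). The 4 arrays after PH lay above the 4 before in all 3 genes, by a narrow gap in Adgre1. Mpeg1, a pore-forming protein of phagocytes, rose by 2.10, Lyz2, lysozyme, by 2.64, C1qb, of complement C1q, by 1.94 and Csf1r, the receptor for colony stimulating factor 1, by 1.74 (adjusted p from 0.00106 to 0.00419). The median difference of the 27 genes from the mean before PH was 3.34, 1.95, 0.78 and 1.58 on replicates 1 to 4 after PH. Without C after replicate 1 the median fold change was 1.40 with 27 of 27 positive and 13 called, and Adgre1 had an adjusted p of 0.0572.

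Genes of antigen presentation and interferon response moved in the same direction. Of 8 tested genes of MHC class II presentation 5 rose and 0 fell (median 1.59), and of 27 interferon-stimulated genes 9 rose, 0 fell and 27 were positive (median 1.12). H2-Ab1, a class II chain, was 3.50, 4.76, 3.98 and 3.19 before and 7.12, 5.73, 4.99 and 5.43 after PH, with a log2 fold change of 1.96 (SE 0.46, adjusted p = 0.00497), and H2-Aa, H2-Eb1 and H2-DMa rose by 1.96, 1.49 and 1.68 (adjusted p = 0.00636, 0.0121 and 0.0163). Mx1, a transcript induced by interferon, was -2.67, -3.93, -4.06 and -3.43 before and 0.49, -0.28, -1.98 and -1.14 after PH, with a log2 fold change of 2.79 (SE 0.38, adjusted p = 4.03e-05). Mx1 was well above background on 1 array before and on 4 arrays after PH. Zbp1, a sensor of Z-form nucleic acids (2.02), the chemokine Cxcl9 (1.62), Oas1a, an oligoadenylate synthetase (1.19), Ifih1, a sensor of double-stranded RNA (0.99), and Ifit2 (1.35) rose with adjusted p from 0.0148 to 0.044. The interferon list had a median of 0.83 without C after replicate 1, with 24 of 27 positive and 1 gene called, and 2 of 8 MHC class II genes were called. Leaving out C before replicate 1, 3 or 4 or C after replicate 2 or 4 left 3 to 5 called interferon genes, and leaving out C after replicate 3 left 13.

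The interferon-stimulated response element was searched as GAAA, any 2 bases and GAAA on both strands of the same promoters. Promoters were given for 19 tested members, and 12 of them (63.2%) held a match, against 3.99% of the promoters of all 27025 genes. Of the 6 called members with a promoter 4 held it. That of Oas1a (chr5:120907476-120907775, minus strand) is shown for its 2 overlapping matches, in capitals.
Oas1a: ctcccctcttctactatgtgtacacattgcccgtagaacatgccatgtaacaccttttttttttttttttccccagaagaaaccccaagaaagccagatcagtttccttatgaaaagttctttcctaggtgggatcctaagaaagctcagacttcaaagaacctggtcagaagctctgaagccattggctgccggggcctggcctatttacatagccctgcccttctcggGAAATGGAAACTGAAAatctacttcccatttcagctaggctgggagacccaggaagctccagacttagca

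Chemokine, neutrophil and acute phase genes rose in part. Of 23 genes of chemokines, cytokines and Toll-like receptors 7 rose and 0 fell (median 1.23). These included Ccl24, an eotaxin (2.70), Ccl6 (2.40), Casp1, which processes interleukin 1β (1.57), and the receptors Tlr4 (1.34) and Tlr13 (1.62), with adjusted p from 0.00144 to 0.0326. Of 14 neutrophil genes 6 rose and 0 fell (median 1.33). S100a8 was -3.29, -2.24, -3.17 and -2.38 before and 2.13, 1.39, -0.54 and 1.10 after PH, with a log2 fold change of 3.79 (SE 0.67, adjusted p = 0.000602), and its partner S100a9 rose by 2.95 (adjusted p = 0.00205). Both genes were apart between times on every array. Clec4d (2.59), Il1b (1.52) and Retnlg (1.96) rose with adjusted p from 0.0109 to 0.035. The probe of the granule enzyme Mpo was well above background on 0 arrays before and 2 arrays after PH, 1.74 and -0.78, and was -4.70 and -4.27 on the others, so that no fold is given. It was called (adjusted p = 0.0415), but not in 6 of the 8 fits with 1 array left out (adjusted p up to 0.191, without C after replicate 2). Without C after replicate 1, and also without C before replicate 4, 4 chemokine and receptor genes and 3 neutrophil genes were called. The median of the chemokine list was 0.60 without the former array and 0.74 with normexp. Likewise 3 neutrophil genes were called without C before replicate 1 or C after replicate 2.

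Of 26 acute phase genes, most of them for proteins that hepatocytes secrete in inflammation, 7 rose and 1 fell, with a median of 0.25. The list also holds transcription factors and other proteins that are not secreted, and the fall and 1 of the rises were among these. Saa1 was 5.43, 5.85, 4.75 and 5.97 before and 9.06, 9.55, 6.67 and 8.78 after PH, with a log2 fold change of 3.02 (SE 0.63, adjusted p = 0.00226). Orm2, an orosomucoid, rose by 1.49 and Apcs, serum amyloid P, by 1.43 (adjusted p = 0.0102 and 0.00611). Among the arrays after PH, C after replicate 3 was the lowest for Saa1, Saa2, Orm2, Orm3, Lcn2 and Apcs, and all 6 genes lay above every array before PH. Hamp, hepcidin, the hormone that limits iron uptake, was 8.13, 8.35, 8.16 and 8.62 before and 7.37, 8.30, 5.99 and 4.41 after PH, and its log2 fold change of -1.80 did not pass (adjusted p = 0.059). Of 17 genes of iron homeostasis 0 were called. Without C after replicate 1, 6 acute phase genes rose and 0 fell, with a median of 0.11, and 1 iron gene fell. The median of the acute phase list was 0.65 with normexp.

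Of 28 genes of stellate cells and myofibroblasts, the cells that lay down collagen, 8 rose and 1 fell, with a median of 0.61. Sparc, a collagen-binding matrix protein, was 4.31, 4.20, 4.38 and 4.55 before and 7.08, 6.08, 6.08 and 6.59 after PH, with a log2 fold change of 2.10 (SE 0.25, adjusted p = 9.33e-06). Col1a1 was -1.44, -0.29, -0.12 and -1.12 before and 4.39, 1.35, 0.52 and 1.85 after PH, with a log2 fold change of 2.77 (SE 0.62, adjusted p = 0.00363). Col1a2 and Col3a1, which encode chains of collagens I and III, rose by 2.25 and 2.34 (SEs 0.41 and 0.45, adjusted p = 0.00088 and 0.00127). The collagens were highest on C after replicate 1 and apart from the arrays before PH on all 4. Vim, vimentin, rose by 1.75 (adjusted p = 0.00218). In contrast Acta2, the smooth muscle actin of myofibroblasts, was 2.69, 0.19, 0.18 and 0.84 before and 3.39, 1.35, 0.22 and 2.12 after PH (log2 fold change 0.80, SE 0.54, adjusted p = 0.331), and Des, desmin, was -0.55 with an adjusted p of 0.148. Of 23 genes of basement membrane and other matrix 4 rose and 0 fell: the nidogens Nid1 (1.97) and Nid2 (0.94), collagen IV gene Col4a1 (1.29) and laminin gene Lama2 (0.92), with adjusted p from 0.00605 to 0.0402. In all 6 stellate and 3 matrix genes rose without C after replicate 1, where the medians were 0.39 and 0.44. Aldh1a2, which makes retinoic acid, rose by 1.51 (adjusted p = 0.0133), on a list of retinoid storage and retinoic acid of which 2 of 12 genes rose and 0 fell, or 1 and 0 without that array. The shares called on the matrix and retinoid lists, 17.4% and 16.7%, lay near the 14% of all genes.

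Several transcripts of inflammation and fibrosis that the study measured in liver did not pass. The study measured them by quantitative PCR and compared livers after with before PH in Fc-GLP-1 treated mice. That comparison therefore belongs to another assay and other mice than the array values here. The study also measured such transcripts in untreated chow-fed mice at each time, as the group against which its other groups were compared. Ccl2, encoding MCP1, was -1.03, -0.75, -0.61 and -0.66 before and 4.80, 0.60, -0.17 and 0.81 after PH (log2 fold change 2.28, SE 0.85, adjusted p = 0.069), with the arrays of both times apart. Tnf was -5.04, -4.13, -4.68 and -4.70 before and -0.52, -4.40, -4.31 and -4.05 after PH (log2 fold change 1.32, SE 0.64, adjusted p = 0.162), and C after replicate 1 was far above the other 7 arrays. The granzyme Gzmb (log2 fold change 1.37, SE 0.58, adjusted p = 0.106) and the metalloproteinase Mmp2 (log2 fold change 1.05, SE 0.41, adjusted p = 0.0802) were higher on all 4 arrays after PH without passing, as was Dpp4 (log2 fold change 0.58, SE 0.39, adjusted p = 0.32), which encodes a protease that cleaves glucagon-like peptide 1. The arrays of both times overlapped for Ifng (log2 fold change 0.81, SE 0.44, adjusted p = 0.219), perforin gene Prf1 (log2 fold change 0.35, SE 0.28, adjusted p = 0.409), neutrophil marker Ly6g (log2 fold change 0.03, SE 0.29, adjusted p = 0.952), Tgfb1 (log2 fold change 0.18, SE 0.37, adjusted p = 0.78) and fibroblast activation protein gene Fap (log2 fold change 0.48, SE 0.49, adjusted p = 0.543). Mmp9 was too dim to be tested. Ly6g changed sign under 5 of the alternatives given in the closing section.

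**Figure D2:**
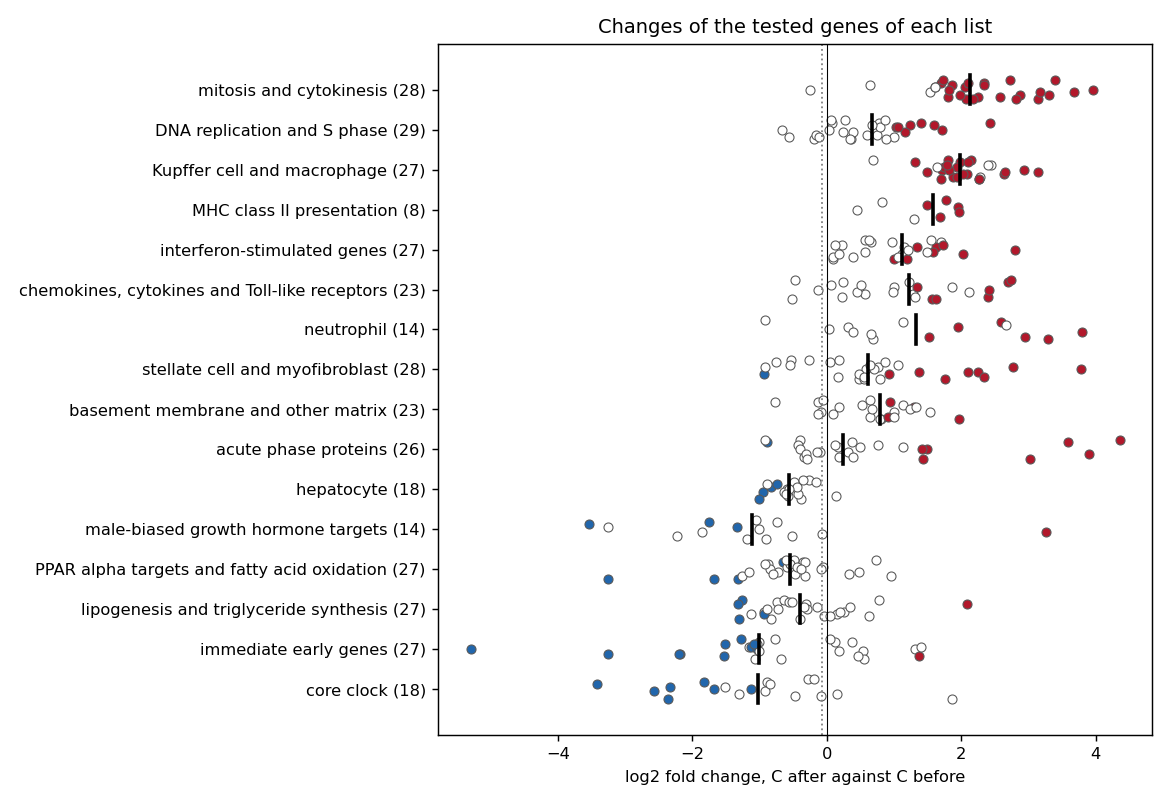
Log2 fold change of C after against C before PH for each tested gene of 16 lists, with the number tested in brackets. Filled circles passed the limma threshold (red higher, blue lower), the black bar is the median of the list and the dotted line the median of all genes; values are fitted changes, also for genes below background at 1 time, and the mitosis and macrophage lists hold 23 and 22 red circles and 0 blue.

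The molecular clock of the liver is a loop in which Clock and Bmal1 drive their own repressors. Of 18 core clock genes 7 fell, against 7.9% of all genes, 0 rose, 11 did not pass and 2 were positive, with a median of -1.02, which was the same with the 2 members below background after PH at their bounds. Nr1d1, the nuclear receptor REV-ERBα, was 3.73, 3.20, 2.85 and 2.90 before and 0.43, 1.33, 1.07 and 0.40 after PH, and fell by 2.36 (SE 0.47, adjusted p = 0.00163). Dbp, an output activator of strong daily rhythm, was 6.28, 6.70, 3.66 and 5.10 before and 3.67, 0.69, 3.00 and 0.74 after PH, and fell by 3.41 (SE 0.68, adjusted p = 0.00153). Bhlhe40, a repressor, was 4.35, 4.30, 3.96 and 4.12 before and 2.51, 1.96, 2.49 and 2.44 after PH, and fell by 1.83 (adjusted p = 0.00821). Nr1d1 and Bhlhe40 were apart on all arrays, while C before replicate 3 lay within the range after PH for Dbp and for Tef, a relative of Dbp that fell by 1.68 (adjusted p = 0.00295). Bhlhe41, another repressor, was at least 3.32-fold lower and Ciart, a repressor of Clock and Bmal1, at least 2.61-fold lower (adjusted p = 0.00474 and 0.00523), and both were well above background on 3 arrays before and 0 after PH. C before replicate 3 was the lowest array before PH for Nr1d1, Dbp, Tef, Bhlhe41 and Ciart. There were 8 falls without C after replicate 1, with normexp 5 and with only the C arrays in the fit 3. The hour of day at which tissue was taken is not given in the sources used here.

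The E-box CACGTG, to which Clock and Bmal1 bind and which reads the same on both strands, was searched in the promoters of the same length. It lay in 4 of the 15 clock genes with a promoter (26.7%) against 8.09% of promoters of all 27025 genes, and in 3 of the 6 called ones. The D-box, the site of Dbp and Tef, searched on both strands as TTATGTAA or TTACGTAA, lay in 1 (6.67%) against 1.23%, and in none of those called. The promoters of the 3 called genes with an E-box, Ciart (chr3:95882179-95882478, minus strand), Tef (chr15:81802423-81802722, plus strand, the first of 2 starts given) and Bhlhe41 (chr6:145865371-145865670, minus strand), are shown with the E-box in capitals. Ciart held 3 matches.
Ciart: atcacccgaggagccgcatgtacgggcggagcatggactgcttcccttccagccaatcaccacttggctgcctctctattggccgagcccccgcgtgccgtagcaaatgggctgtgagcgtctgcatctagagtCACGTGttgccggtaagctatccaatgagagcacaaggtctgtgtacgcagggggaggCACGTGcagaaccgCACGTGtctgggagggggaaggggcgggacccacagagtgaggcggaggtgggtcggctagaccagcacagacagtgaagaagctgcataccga
Tef: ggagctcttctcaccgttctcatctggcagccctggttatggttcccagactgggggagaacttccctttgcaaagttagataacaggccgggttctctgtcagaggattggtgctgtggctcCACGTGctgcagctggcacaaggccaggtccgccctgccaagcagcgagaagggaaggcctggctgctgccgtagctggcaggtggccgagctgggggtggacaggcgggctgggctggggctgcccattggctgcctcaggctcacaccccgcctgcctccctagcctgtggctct
Bhlhe41: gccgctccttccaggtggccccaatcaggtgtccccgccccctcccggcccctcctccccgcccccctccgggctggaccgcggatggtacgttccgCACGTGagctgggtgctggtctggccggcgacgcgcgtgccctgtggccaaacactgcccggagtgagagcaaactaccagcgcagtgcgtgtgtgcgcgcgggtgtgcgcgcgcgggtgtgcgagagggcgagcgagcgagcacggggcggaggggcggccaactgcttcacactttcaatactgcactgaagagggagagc

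Immediate early genes are transcribed within minutes of a stimulus. Of 27 tested 10 fell, 1 rose and 16 did not pass, with a median of -1.0 (-0.50 with normexp) and 10 positive. Rgs16 and Zfp36 led this list. Dusp6, a phosphatase that limits ERK signalling, was 4.03, 4.30, 4.20 and 4.14 before and 2.93, 2.66, 2.92 and 3.04 after PH, and fell by 1.28 (SE 0.21, adjusted p = 0.000361). Klf10, a TGF-β inducible factor, fell by 2.20 and Dusp1, a phosphatase of p38 and JNK, by 1.53 (adjusted p = 0.00878 and 0.00455). Ier5 was the exception and rose by 1.38 (adjusted p = 0.0157). The median difference from the mean before PH was -0.05 on C after replicate 1 and -0.82, -1.24 and -1.03 on the other arrays, so here that array was nearest to the excised livers, and 11 genes fell without it. With normexp 7 fell, with only the C arrays in the fit 6, and without C before replicate 3 there were 5. A cAMP response element, TGACGTCA, lay in 3 of 21 promoters of these genes (14.3%) against 2.03% of all. Of the 8 called members with a promoter 1 held it.

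Few genes of glucose and lipid metabolism were called, and the shares called in the lists of glucose, lipogenic and PPARα genes, 14.8% to 18.5%, lay near the 14% of all genes. Of 20 genes of glucose, glycogen and insulin signalling 3 fell and 0 rose. Among them, besides Ppp1r3g, was Ppp1r3b, a further glycogen-targeting subunit, which was 7.99, 6.99, 6.50 and 6.71 before and 5.42, 6.11, 6.50 and 5.75 after PH (log2 fold change -1.10, SE 0.35, adjusted p = 0.0339). Of 27 genes of lipogenesis 4 fell and 1 rose. Mlxipl, the carbohydrate response factor ChREBP, was 7.47, 7.23, 7.23 and 7.23 before and 5.53, 6.67, 6.90 and 6.33 after PH (log2 fold change -0.93, SE 0.26, adjusted p = 0.0174), and Pklr, liver pyruvate kinase (-1.31), Me1, malic enzyme (-1.32), and Lpin1, a phosphatidate phosphatase (-1.26), fell with adjusted p from 0.0187 to 0.0284. Scd2, a desaturase scarce in adult hepatocytes, rose (log2 fold change 2.08, SE 0.50, adjusted p = 0.00645). Of 27 PPARα targets and genes of fatty acid oxidation 4 fell and 0 rose: Fgf21, Angptl4, an inhibitor of lipoprotein lipase (-1.69), the peroxisomal thiolase Acaa1b (-1.32) and Cpt1a, the gate of mitochondrial fatty acid entry (-0.65), with adjusted p of 0.0148, 0.0166 and 0.0464 for the last 3. Without C after replicate 1, 3 glucose genes, 1 lipogenic and 1 PPARα gene fell and 1 lipogenic gene rose, without C after replicate 2 there were 2 PPARα genes, and without C after replicate 4 there was 1 gene of the glucose list. Of 23 genes of cholesterol synthesis and uptake and 22 of amino acid catabolism and the urea cycle 0 were called, and without C after replicate 1 there was 1 rise in the latter.

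Other hepatocyte functions changed in single genes. Igfbp2, a binding protein of insulin-like growth factors, was 7.95, 8.27, 7.93 and 8.17 before and 4.97, 5.83, 7.10 and 6.71 after PH, and fell by 1.92 (SE 0.34, adjusted p = 0.000589). Mt1, metallothionein, was 4.27, 5.01, 3.13 and 3.84 before and 8.73, 6.09, 5.23 and 6.23 after PH, with a log2 fold change of 2.51 (SE 0.51, adjusted p = 0.00181). Asns, asparagine synthetase, was -1.17, -0.12, 0.03 and 0.39 before and 1.76, 3.39, 1.48 and 3.20 after PH, with a log2 fold change of 2.67 (SE 0.44, adjusted p = 0.000323). These 3 genes did not overlap between times and kept the call in every fit with 1 array left out. Igfbp2 lost the call with normexp (-0.84, adjusted p = 0.0706) and in the authors' values as deposited (-0.35, adjusted p = 0.358). Mt1 lost it as a mean over probes (adjusted p = 0.0654) and with only the C arrays in the fit (adjusted p = 0.0614). Herpud1, of degradation from the endoplasmic reticulum, fell by 1.68, the chaperone Hspa1a by 2.36 and Cox4i1, of cytochrome c oxidase, by 1.08 (adjusted p = 0.00393, 0.00505 and 0.0026). The polymeric immunoglobulin receptor Pigr, which carries IgA into bile, fell by 1.58 (adjusted p = 0.00159), and Aldh1b1, a mitochondrial aldehyde dehydrogenase, rose by 1.06 (adjusted p = 0.0217). In the xenobiotic list 3 of 24 genes rose and 3 fell: Cyp1b1 was at least 3.58-fold higher (adjusted p = 0.00129), while Cyp2c29 (-1.16) and Nr1i3, the constitutive androstane receptor (-1.27), fell (adjusted p = 0.0113 and 0.0182). In bile acid handling Abcg8, a canalicular sterol exporter, fell by 1.65, Nr0b2, the repressor SHP, fell by 1.17 and the basolateral exporter subunit Slc51b rose by 2.22 (adjusted p = 0.0167, 0.0354 and 0.0212). Srxn1, a target of NRF2, rose by 1.05 (adjusted p = 0.0432). By list, 2 of 18 NRF2 targets rose and 0 fell, 1 of 21 genes of endoplasmic reticulum stress rose and 2 fell, 1 of 20 bile acid genes rose and 2 fell, and 0 of 14 genes of the growth hormone and insulin-like growth factor axis rose and 1 fell. In each of the lists of heat shock chaperones (14 genes), oxidative phosphorylation (22) and complement and coagulation (21), 0 rose and 1 fell. Against 14% of all genes, the shares called were 11.1% for NRF2 targets, 14.3% for endoplasmic reticulum stress and 15% for bile acid genes. The share was 25% for the xenobiotic list, and 4.55% to 7.14% for the growth hormone, chaperone, oxidative phosphorylation and complement lists. Without C after replicate 1, 2 xenobiotic genes rose and 1 fell, 1 NRF2 target rose, 0 bile acid genes were called, and 1 gene of the growth hormone axis rose and 1 fell. Without it the complement list had 1 rise and 0 falls, and the stress, chaperone and oxidative phosphorylation lists had the same counts as with it.

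Male-biased targets of growth hormone had a median of -1.12 (-0.63 with normexp), and 3 of 14 fell and 1 rose. The fall lay mostly in 1 liver: the median difference from the mean before PH was -3.62 on C after replicate 1 and -0.27, -0.31 and -0.85 on the others, and without it the median was -0.36 and 0 fell. The number of falls was 0 also without any 1 of the arrays before PH, 1 without C after replicate 4, 5 without C after replicate 2 and 8 without C after replicate 3. Hsd3b5, a male-specific steroid dehydrogenase, was 6.17, 6.67, 7.11 and 5.51 before and -3.63, 6.25, 5.56 and 3.14 after PH (log2 fold change -3.54, SE 1.18, adjusted p = 0.0428). Cyp2d9 (-1.33) and Cspg5 (-1.75) were also lowest there, with 4.42 and -4.0 on that array and at least 6.34 and -1.38 on the others (adjusted p = 0.0335 and 0.0366). Spink1, a trypsin inhibitor, was the rise, -2.45, -1.70, -1.62 and -2.10 before and 3.06, -0.55, 0.54 and 2.11 after PH, with a log2 fold change of 3.26 (SE 0.55, adjusted p = 0.000395). Of 12 female-biased targets 1, Sult1e1, rose and 0 fell. Of 6 fetal liver genes Afp and the non-coding H19 rose by 1.12 and 3.06 (adjusted p = 0.0272 and 0.0321), and H19 was 5.35 on C after replicate 1 against -3.18, -1.92 and -0.98 on the others. Without that array 0 female-biased and 0 fetal genes were called.

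Markers of the cell types of liver checked the tissue. All 18 hepatocyte markers were well above background on all 8 arrays. Of these 4 fell and 0 rose, with a median of -0.57: Apoa2 (-0.95), Apoa1 (-0.82), Asgr1, the asialoglycoprotein receptor (-0.75), and the factor Foxa2 (-1.0), with adjusted p from 0.00693 to 0.032. With normexp, as with centring on the median or the authors' values centred again, 0 of them were called, and without C after replicate 1 there was 1. With normexp the median was -0.10, and Apoa2 and Asgr1 were positive. Their median difference from the mean before PH was -1.09 on C after replicate 1 and -0.57 to -0.22 on the other arrays after PH. The summed level of the hepatocyte markers, in units of the array's 75th percentile, ranged from 6418 to 8846 before and from 3820 to 6766 after PH, while that of the macrophage genes ranged from 84 to 146 and from 186 to 958. The part of cell composition in the changes above was not tested.

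Of 19 genes of T and NK cells 4 rose and 1 fell. Gzma, a granzyme (1.69), Klrd1, the NK receptor CD94 (1.44), and the chemokine Ccl5 (1.12) rose and Cd4 fell (-1.18), with adjusted p from 0.00902 to 0.0333, and 0 of the 19 were called without C after replicate 1. Without C before replicate 1, C before replicate 4 or C after replicate 2, 1 rose. Of 25 endothelial genes 2 rose, Vwf, von Willebrand factor (0.93), and Vcam1, an adhesion receptor (1.6), and Bmp2, a regulator of hepcidin made by sinusoidal cells, fell (-0.82), with adjusted p of 0.0255, 0.0469 and 0.0249. Neither rise was called without C after replicate 1 or C before replicate 1, and the mean over the probes of Vwf had the other sign (-0.43). The share of the endothelial list that was called, 12%, lay near the 14% of all genes. Of 13 erythroid and platelet genes Pf4, platelet factor 4 (1.73), and Slc4a1, the erythrocyte anion exchanger (1.38), rose and Hba-a1, α-globin (-1.30), fell, with adjusted p of 0.00434, 0.00639 and 0.0391, and without C after replicate 1, 2 rose and 0 fell. Of 11 cholangiocyte, 11 B and plasma cell, 6 mesothelial, 13 pericentral and 12 periportal genes 0, 0, 0, 0 and 2 were called, and of 5 tested markers of adipose tissue, pancreas and muscle 1, the pancreatic elastase Cela1, fell (log2 fold change -1.39, SE 0.37, adjusted p = 0.012). These counts were the same without C after replicate 1, apart from 1 B and plasma cell gene that rose. The 6 mesothelial genes had a median of 1.37 (0.81 with normexp), and their summed level ranged from 0.995 to 1.29 before and from 0.706 to 9.28 after PH.

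**Figure D3:**
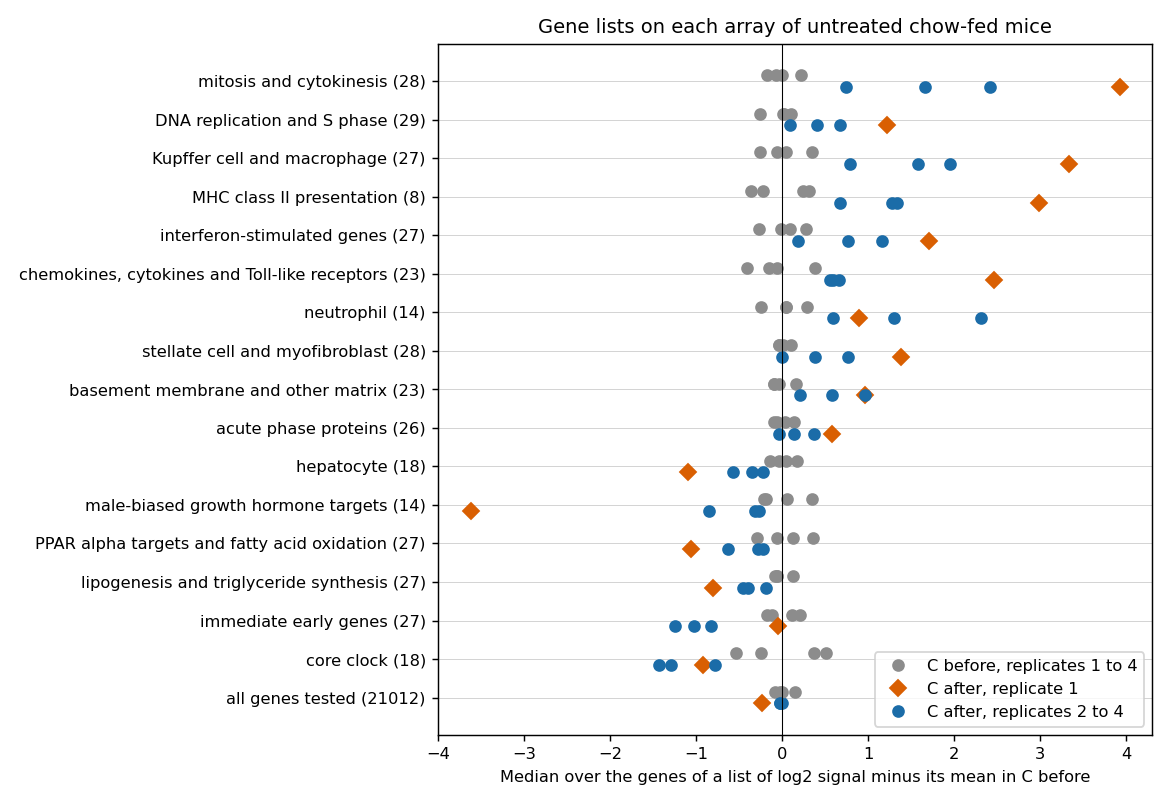
Median over the tested genes of each list (number in brackets) of the log2 signal minus its mean in C before, on each of the 8 C arrays. Grey circles are arrays before PH, blue circles arrays after PH and orange diamonds C after replicate 1, which was the farthest from the arrays before PH in mitosis (3.93), macrophage (3.34) and male-biased genes (-3.62) and the nearest in immediate early genes (-0.05).

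**Figure D4:**
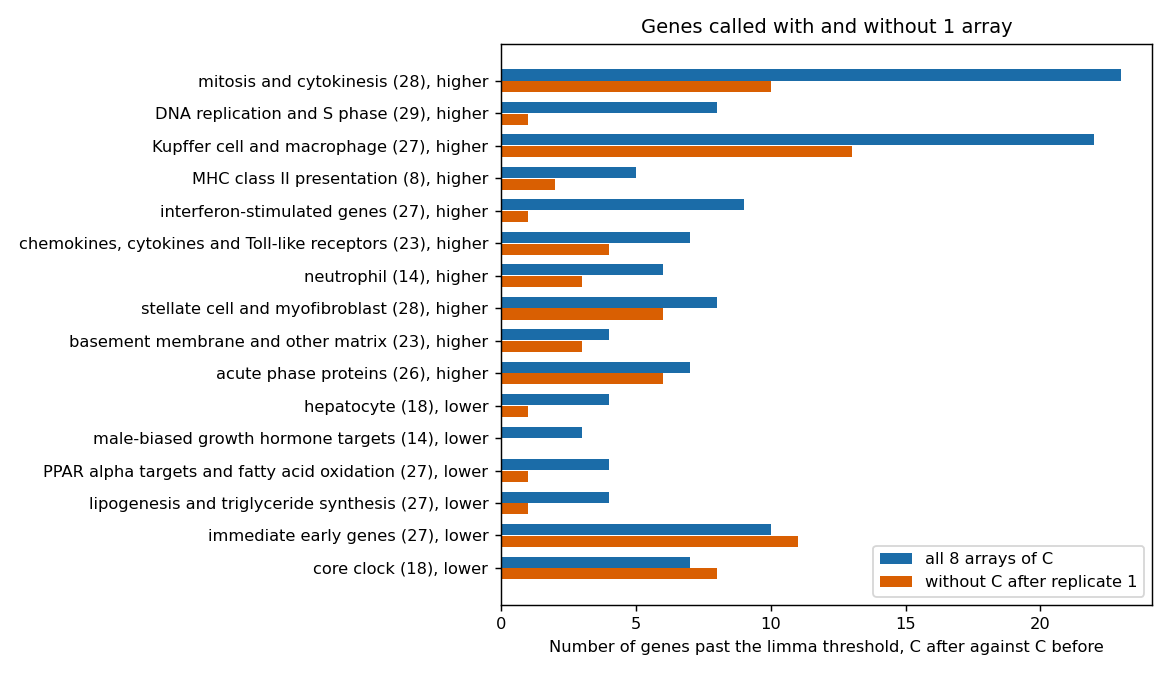
Number of genes of each list past the limma threshold, in the direction in which more genes of that list were called, with all arrays (blue) and without C after replicate 1 (orange). Mitosis went from 23 to 10 and interferon-stimulated genes from 9 to 1, whereas the clock and immediate early lists went from 7 to 8 and from 10 to 11.

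Whether C mice changed differently from mice given Fc-GLP-1 was tested as the difference of the changes after PH. In C+Fc-GLP-1 mice 176 genes were called between the times (0.838%), and the change differed from that of C mice in 239 genes (1.14%), 41 more positive and 198 more negative in C mice. The C+Fc-GLP-1 arrays lay on other slides, and those of both times were read by the scanner of the C arrays before PH. In C mice, as in MCD mice, the scanner changed between the times. Treatment can therefore not be told apart from slide or scanner in this test or in the numbers of called genes. With 1 array left out the 239 genes became 132 to 286. The mitosis list had a median of 2.22 in C+Fc-GLP-1 mice, where 8 of 28 genes rose, and 0 of 28 passed the test of the difference. Macrophage genes had a median of 1.09, 1 of 27 rose, and again 0 passed the test of the difference, which does not show that the groups were alike. Zfp36 had a log2 fold change of -1.0 in C+Fc-GLP-1 and -3.25 in C mice, a difference of -2.25 (adjusted p = 0.0424). Mt1 was -0.44 in C+Fc-GLP-1 and 2.51 in C mice (difference 2.95, adjusted p = 0.0373), Pigr was 0.96 and -1.58 (difference -2.54, adjusted p = 0.00346), and Pf4 was -0.55 and 1.73 (difference 2.28, adjusted p = 0.0376). The low-signal genes Tbx22, Olfr433, Mrgprg, Fcgbp and Trim42 differed as well, with 1.67, 1.32, 0.98, 0.61 and 0.32 in C+Fc-GLP-1 mice. The change of none of these low-signal genes differed between C and MCD mice, whose arrays after PH were read by the same scanner. The part of the scanner in these differences was not tested.

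In MCD mice 1987 genes were called between the times (9.46%), and the change differed from that of C mice in 600 genes (2.86%), 227 more positive and 373 more negative in C mice. Here the arrays before PH of both diets shared a slide and the arrays after PH of both shared a scanner. After PH, however, the diets lay on different slides read in different scan sessions, so diet cannot be told apart from these. Of the 28 mitosis genes 17 differed, all more positive in C mice, and the median in MCD mice was -1.08. Prc1 had a log2 fold change of -1.14 in MCD and 3.40 in C mice (difference 4.54, adjusted p = 0.0123). The interferon list had a median of -0.66 in MCD mice and 5 genes that differed, among them Mx1 (-1.04 in MCD mice, difference 3.83, adjusted p = 0.000678). In the stellate list 4 genes differed, with Sparc at -0.04 in MCD mice (difference 2.14, adjusted p = 0.00314), Col1a1 at -0.44 (adjusted p = 0.0417) and Col3a1 at -0.73 (adjusted p = 0.0118). Of 27 macrophage genes 2 differed and of 18 clock genes 0. Neutrophil genes had a median of 2.73 in MCD mice, above that of C mice, and 0 of 14 differed. Rgs16 fell by 2.35 in MCD mice, less than in C mice (difference -2.94, adjusted p = 0.0316) and Cd4 rose by 1.09 in MCD mice (difference -2.27, adjusted p = 0.00928). With 1 array left out the 600 genes became 274 to 831, the fewest without C after replicate 4.

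**Figure D5:**
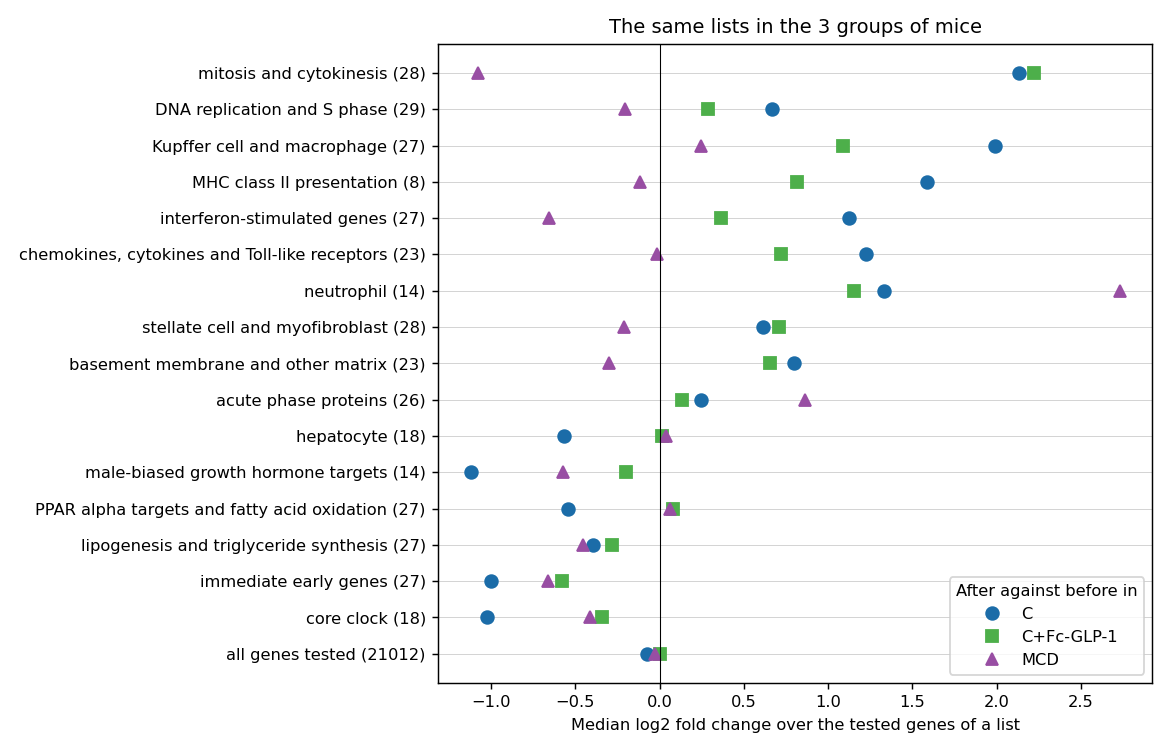
Median log2 fold change after against before PH over the tested genes of each list in C (blue circles), C+Fc-GLP-1 (green squares) and MCD mice (purple triangles). The mitosis list is at 2.13, 2.22 and -1.08, and the neutrophil list at 1.33, 1.15 and 2.73.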

How the data were processed

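Total RNA from the livers was hybridised by the authors to 1-colour Agilent mouse arrays. Spot intensity was deposited as scanner output by Feature Extraction, in which the processed signal is already background-subtracted, and a table of normalized log2 values was deposited too, which the authors made with limma (version not given in the sources used here). The quantiles of that table differ between times of hepatectomy, so it was normalized separately for the arrays before and after PH and served as an alternative. From the processed signal of non-control spots, log2 values minus the 75th percentile of the array were computed. A total of 426 probes flagged as outliers were dropped and 28937 kept, the latter being those well above background on every array of 1 group or more. The brightest probe stood for each of 21012 genes. All 32 arrays in 8 groups were fitted with limma 3.58.1 in R 4.3.3 (lmFit and eBayes), with p-values adjusted by the Benjamini-Hochberg method at 0.05. Other steps used Python 3.11.15. A standard error comes from the variance moderated over genes. A gene below background on all 4 arrays of 1 group is given only as a bound, from the mean of the higher group against, on each array of the lower group, the lowest signal well above background or the gene's own where that was higher.

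The genes named were the 12 largest rises and falls that met the criteria in the text, the transcripts measured in liver by the study, and in each list up to 6 called members with the smallest adjusted p. Of 194 genes that met this rule 149 are described, and a few others are not reported here. The comparison and the 42 lists were chosen with earlier results of these data known. A list is summarised by its counts and median, and no test was run on a list. Promoters came from RefSeq on GRCm38.p6. In simulated data with 200 changed genes, 28% of changes of 1 and 87% of changes of 2 on the log2 scale were recovered, with 3 calls among unchanged genes. The simulation used independent normal noise and far fewer changed genes than were called here. It held no shift of slide or scanner and no outlying array, so it does not measure errors from these. Other settings were background correction, centring, the authors' values, the filter, the choice of probes, the arrays in the fit, a replicate block and leaving out each array in turn. Precision is limited by the number of arrays, and no array held identical values to another. No spot was saturated on the 8 arrays.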

Additional observations from a re-analysis of the deposited data

Results flagged for a closer look

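Of 298 groups of 4 arrays, for the 149 genes described, 14 held an array set apart from the others by a wide gap, and chance gives about 1 in 20 groups. In 5 of the 14 it was C after replicate 1. That array was the highest after PH for Tnf (-0.52 against -4.40 to -4.05), Cxcl9 (4.24 against 1.14 to 1.53) and H2-DMa (1.97 against -0.85 to -0.46), where the range is that of the other 3 arrays of the group on the log2 scale. It was the lowest for Serpina4-ps1 (-3.01 against 5.15 to 6.24) and Pklr (-0.68 against 1.01 to 1.18). C after replicate 2 was the lowest after PH for Cdkn2c (-1.01 against 0.06 to 0.20) and Bhlhe40 (1.96 against 2.44 to 2.51), and C after replicate 3 for Saa2 (5.81 against 8.24 to 8.65) and Cyp1b1 (-3.52 against -2.27 to -2.16). Before PH, C before replicate 1 stood below the others for Sult1e1 (-5.82 against -3.48 to -3.34) and Mrgprg (-2.41 against -1.57 to -1.41), and above them for Mlxipl (7.47 against 7.23 to 7.23). C before replicate 2 was the highest for Cdkn2c (0.24 against -2.38 to -2.26) and C before replicate 3 for Col4a1 (0.83 against 0.39 to 0.45).

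The change after PH differed between C and C+Fc-GLP-1 mice in 9 of the genes described, by the limma test of the difference. The change in C mice was more positive for Mt1 (2.95) and Pf4 (2.28), and more negative for Tbx22 (-5.65), Olfr433 (-4.69), Mrgprg (-4.18), Fcgbp (-3.78), Trim42 (-3.41), Pigr (-2.54) and Zfp36 (-2.25), each a difference of log2 fold changes.

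It differed between C and MCD mice in 23 of the genes described. Among mitotic and replication genes the change in C mice was more positive for Pbk (5.98), Prc1 (4.54), Cenpe (4.24), Top2a (4.07), Racgap1 (2.79) and Cdt1 (1.59). Among matrix genes it was more positive for Col1a1 (3.21), Col3a1 (3.07), Col1a2 (2.46), Sparc (2.14) and Lama2 (1.58). Among immune genes it was more positive for Mx1 (3.83), Ccl24 (3.18), Ifit2 (2.63) and H2-Eb1 (2.12), and more negative for Cd4 (-2.27). It was also more positive for Scd2 (2.70), Pf4 (1.98) and Aldh1b1 (1.82), and more negative for Cela1 (-3.23), Rgs16 (-2.94), Cspg5 (-2.93) and Zfp36 (-2.59). The values for Olfr433, Pbk and Top2a rest on a group of C arrays with no signal well above background and are fitted values, not bounds. In the test against C+Fc-GLP-1 mice the slides of both times and the scanner after PH differed between the groups compared, and in that against MCD mice the slide after PH did. Their part in these differences was not tested.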

How the results depend on the processing

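For C after against C before PH, 2942 genes were called, 1282 higher and 1660 lower. The count was 2874 with normexp and quantile normalization (1640 shared), and the split moved with the scaling: 897 lower when arrays were centred on their median and 1094 lower with the 75th percentile of probes well above background on all arrays. The authors' values as deposited gave 9689 calls, 9467 higher and 222 lower, and centring them again on the 75th percentile gave 2880 lower. With only the arrays of the groups compared there were 1166 (546 higher, 620 lower). With each array left out in turn there were 1527 to 3043 calls, 706 to 1359 higher and 821 to 1684 lower, the lowest without C after replicate 1 and the highest without C after replicate 3.

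The difference from C+Fc-GLP-1 (239 genes, 41 higher and 198 lower) was 573 with normexp (208 and 365), 480 with the authors' values (173 and 307), 531 with those centred again (143 and 388) and 159 with only the groups compared, 20 of them higher. Median centring gave 88 higher. Leaving out 1 array gave 132 to 286 (16 to 41 higher, 114 to 245 lower), with 145 without C before replicate 2 and 140 without C after replicate 1. The counts were 149 without C+Fc-GLP-1 before replicate 2, 132 without C+Fc-GLP-1 after replicate 3 and 134 without C+Fc-GLP-1 after replicate 4. The difference from MCD (600 genes, 227 higher and 373 lower) was 331 with median centring, 66 of them lower, and 328 without the filter on dim probes (110 and 218). Leaving out 1 array gave 274 to 831 (106 to 369 higher, 168 to 462 lower). The counts were 301, 327 and 274 without C before replicate 1, C after replicate 1 and C after replicate 4. They were 374, 320 and 372 without MCD before replicates 1, 3 and 4, and 348, 367 and 327 without MCD after replicates 1, 2 and 3.

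Of 136 called genes described, 77 kept the call with any 1 of the 8 arrays left out and 39 under all alternatives. The most lost it with only the arrays of the groups compared (75), followed by leaving out C after replicate 1 (56), the authors' values centred again (43) and normexp (40). Some log2 fold changes turned sign, and the cause was not tested. With normexp these were Apoa2 (0.25), Asgr1 (0.10) and Ly6g (-0.22). In the authors' values as deposited they were Apoa1 (0.25), Apoa2 (0.59), Asgr1 (0.57), Cd4 (0.33), Cpt1a (0.27), Des (0.16), Foxa2 (0.45), Hgfac (0.074), Lpin1 (0.13) and Ppp1r3b (0.29). With those values centred again they were Ifng (-0.081) and Ly6g (-0.28), and as a mean over probes Vwf (-0.43). With 1 array left out Tgfb1 ranged from -0.32 (without C after replicate 1) to 0.41. Ly6g was -0.14, -0.11 and -0.04 without C before replicate 1, C after replicate 2 and C after replicate 3, and reached 0.18 without C after replicate 1.

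The labels do not say that replicate numbers pair mice. The deviations of same-numbered arrays before and after PH correlated at -0.02, -0.03, 0.03 and 0.01, and not every array correlated best with its own number. With the replicate number as a block 3091 genes were called (1342 higher, 1749 lower), and the difference from MCD had 433 calls, 245 of them lower. Slide as a block could not be fitted, since no slide held both times, and was not run. Dim genes, which 1 or no array of a group measured above background, are limited by background. The design has no sham group.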
